A study of Mus musculus with 32 samples.

Results

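The thymus and the spleen of wild type mice were compared on 8 of the 32 arrays of the study. The arrays were chosen by tissue and genotype as labelled: 4 thymi against 4 spleens, each pair of organs from 1 mouse, so that the mouse number pairs them. The thymus group held thymi of female C57BL/6 wild type mice, which carried no transgene, at 12 weeks of age. The spleen group held spleens of those same females, also C57BL/6 wild type at 12 weeks. The study set CD30L transgenic mice (CD2-CD30L, which overexpress CD30 ligand on T cells) against such non-transgenic animals in 4 lymphoid tissues. The 4 transgenic thymi and 4 transgenic spleens, also from 12-week-old C57BL/6 females, serve here only as a second set of animals for the same contrast, and the wild type peripheral and mesenteric lymph nodes as 2 further tissues of the same mice. Whole organs were used, so every level is a mean over all cells of an organ, and fewer cells of a type cannot be told apart from less RNA per cell.

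The thymus is the organ in which T cells are made. Precursors from the blood settle among epithelial cells, rearrange their T cell receptor genes, pass through a stage at which they carry both CD4 and CD8, and are selected before they leave for the circulation. The spleen filters blood: its white pulp holds mature B and T cells, its red pulp holds macrophages that take up old erythrocytes and recycle their iron, and in mice it also makes erythrocytes, platelets and granulocytes throughout life.

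A level is given as log2(intensity + 16) after quantile normalization of the 8 arrays. Intensities at or below 0 were set to 0, so the lowest possible level is 4, called the floor below. Levels given in a row stand for mice 1 to 4 in that order. A difference is the mean log2 level in thymus minus that in spleen, over n = 4 mice, and its standard error (SE) and p come from limma with the mouse as a block. A gene was called where the Benjamini-Hochberg adjusted p over all probe sets was under 0.05. Each gene is represented by its brightest probe set. Differences of dim genes are understated on this scale, and the level of 1 gene is not set against that of another, since probe sets differ in how strongly they bind.

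The arrays separated by tissue. Correlations between thymi were 0.965 to 0.982 and between spleens 0.964 to 0.985, while those between a thymus and a spleen were 0.876 to 0.900. The ratio of 3' to 5' signal for Actb, which reads RNA integrity, was 1.34 to 1.78 in thymi and 1.65 to 3.58 in spleens, with both values above 3 in the spleens of mice 1 and 2. The second principal component, with 7.69% of the variance, set the spleens of mice 1 and 2 (36.5 and 33.5) apart from those of mice 3 and 4 (-27.4 and -47.3). The labels held against cell type markers. All 8 measured thymocyte markers were called higher in thymus, with a summed intensity of 32459 to 33934 in thymus, against 1279 to 2687 in spleen. All 4 measured B cell markers were called lower, with 468 to 595 in thymus, against 13002 to 14179 in spleen, and so were all 5 neutrophil and all 5 red pulp macrophage markers. The array of the mouse 4 spleen stood apart. It had the highest spleen level for 5 of the 8 thymocyte markers and 6 of the 7 thymic epithelial markers, and the lowest for all 16 neutrophil genes tested. The intensity of Rag1 there was 8.33% of the mean thymus intensity, against 0.0571% to 0.272% in the other 3 spleens, and that of Dntt 3.96%, against 0.0766% to 0.560%. Rag2 and Ptcra, which also mark thymocytes, were at the floor there. The marker Cd4 was lowest there among the spleens, at 7.17, against 7.55 to 8.26 in the other 3. Whether thymus RNA on this array has a part in any result was not tested. For some of the genes and lists in which mouse 4 stood apart, results without it are given as well.

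**Figure D1:**
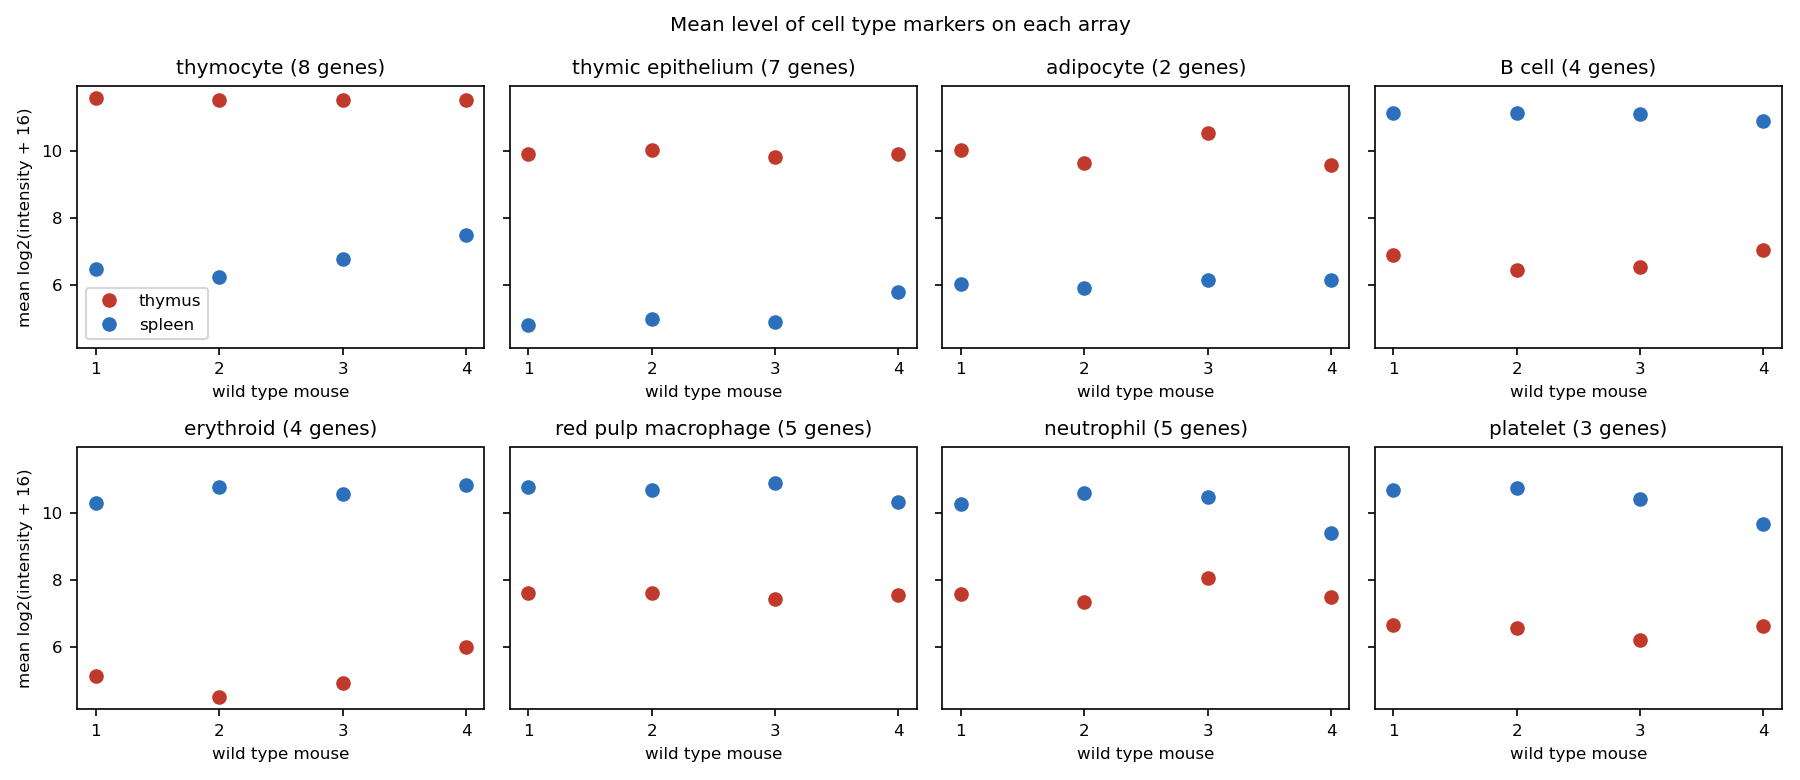
Mean log2(intensity + 16) of the cell type markers (vertical axis) on each of the 8 arrays, by mouse number (horizontal axis), 1 panel per cell type with the number of measured markers, thymus in the colour named first in the legend and spleen in the second. Thymocyte, thymic epithelial and adipocyte markers lie higher in thymus and the markers of the other 5 types lie higher in spleen in each of the 4 mice, and the mouse 4 spleen is the highest spleen for thymocytes at 7.5 and for thymic epithelium at 5.81.

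Many of the measured genes differed between the organs. Of 12689 genes tested, 6465 (50.9%) were called, 3127 (24.6%) higher in thymus and 3338 (26.3%) lower, and the median difference over all of them was 0.01. Differences of at least 1 on the log2 scale, a fold of 2 or more, were called for 937 genes higher in thymus (7.38%) and 1682 lower (13.3%). On 53.7% of genes the 4 thymi and the 4 spleens did not overlap. Over the 27022 probe sets tested, 13176 (48.8%) were called, 7176 (26.6%) higher and 6000 (22.2%) lower. These shares are the background against which the counts below are read.

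The genes of T cell receptor assembly stood at the top of the thymus list. Rag1, which with Rag2 cuts DNA to start V(D)J recombination, had levels of 12.96, 12.80, 12.95 and 12.84 in thymus, against 4.34, 4.61, 5.19 and 9.34 in spleen (difference 7.02, SE 0.86, adjusted p = 0.00166). All 4 spleens lay below all 4 thymi, and the mouse 4 spleen was far above the other 3. Without mouse 4 the difference in Rag1 was 8.22 (adjusted p = 0.000293). Rag2 had levels of 10.40, 10.10, 9.98 and 9.93 in thymus, against 4.35, 4.02, 4.00 and 4.00 in spleen (difference 6.01, SE 0.09, adjusted p = 2.93e-05), with the spleens of mice 3 and 4 at the floor. Dntt, the polymerase that adds untemplated bases at the joints, was likewise highest among spleens in mouse 4, with 13.08, 13.09, 13.02 and 13.02 in thymus, against 5.55, 4.49, 5.99 and 8.46 in spleen (difference 6.93, SE 0.63, adjusted p = 0.000539), and 7.75 without mouse 4. Ptcra, the surrogate chain that pairs with the first rearranged receptor chain, reached 9.02, 9.19, 9.38 and 9.32 in thymus, against 4.00, 4.00, 5.12 and 4.00 in spleen (difference 4.95, SE 0.19, adjusted p = 4.27e-05). Its single raised spleen was that of mouse 3, not of mouse 4.

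The start of Rag1 is shown because this gene had the largest called difference toward thymus on the brightest probe set of each gene. Dimmer probe sets of Dntt were called higher by 4.54 and 7.49. The window runs from 250 bases before to 50 after the annotated start, on the minus strand at chr2:101649483-101649782 of GRCm38.p6 (RefSeq). The capitals mark its single match to the E box CAGGTG, a motif of the E protein family to which Tcf12 belongs, searched on both strands; it begins 135 bases before the start.
Rag1: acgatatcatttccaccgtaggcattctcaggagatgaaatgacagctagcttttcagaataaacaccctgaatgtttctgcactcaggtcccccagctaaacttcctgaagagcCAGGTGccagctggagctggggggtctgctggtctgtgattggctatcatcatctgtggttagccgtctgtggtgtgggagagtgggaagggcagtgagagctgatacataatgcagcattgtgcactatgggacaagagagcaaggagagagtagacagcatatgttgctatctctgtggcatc
An E box of these letters lay in 21.4% of the 14 windows found for the double positive thymocyte list and in 18.1% of the 10230 windows of all genes tested, so the shares were close. Rag1 is not among those 14, and no share was taken for its own list, that of V(D)J recombination. A match is a description of the sequence, not a binding site.

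The DNA repair enzymes that close the breaks did not all differ alike. Lig4, the ligase of end joining, had 10.22, 10.48, 10.33 and 10.41 in thymus, against 6.81, 6.67, 6.58 and 6.72 in spleen (difference 3.67, SE 0.11, adjusted p = 2.93e-05). Xrcc6, which encodes the Ku70 subunit, was also clearly higher in thymus (difference 2.82, SE 0.10, adjusted p = 3.66e-05). Its partner Xrcc5, the Ku80 subunit, differed little (difference 0.36, adjusted p = 0.0262), a call that was lost without mouse 1, 2 or 3. Xrcc4, the partner of Lig4, was higher (difference 0.75, adjusted p = 0.00185), though not with no normalization. Prkdc, the kinase of the same pathway, was lower in thymus (difference -0.41, adjusted p = 0.0140), and that call was lost without mouse 1 or without mouse 3. Nhej1 was not called (difference -0.54, adjusted p = 0.0710). In all, 8 of the 10 genes tested in this list were called higher and 1 lower, with a median difference of 3.24.

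Genes of double positive thymocytes, the CD4 and CD8 bearing majority of a thymus, were higher in thymus almost throughout. Of 22 tested, 20 were called higher and 0 lower, with a median of 2.76. Arpp21, which encodes a cyclic AMP regulated phosphoprotein, had 11.70, 11.71, 11.74 and 11.82 in thymus, against 5.88, 6.13, 6.04 and 7.15 in spleen (difference 5.45, SE 0.21, adjusted p = 4.15e-05). Ccr9, the receptor that guides thymocytes toward the chemokine Ccl25, had 12.51, 12.43, 12.49 and 12.47 in thymus, against 8.36, 8.40, 8.24 and 8.86 in spleen (difference 4.01, SE 0.13, adjusted p = 3.30e-05). Both genes kept the 2 organs far apart, and the mouse 4 spleen was again the highest spleen. On their brightest probe sets the coreceptor genes, which mature T cells of the spleen also carry, differed less than Arpp21 and Ccr9. Further probe sets of Cd8a gave differences of 2.78 to 4.21. Cd8a had 12.10, 12.11, 12.09 and 12.08 in thymus, against 9.31, 8.95, 9.31 and 9.39 in spleen (difference 2.86, SE 0.12, adjusted p = 4.63e-05), Cd8b1 differed by 3.54 and Cd4 by 3.38. Satb1, a chromatin organiser of thymocytes, had 12.94, 12.82, 12.94 and 12.84 in thymus, against 10.44, 10.49, 10.41 and 10.53 in spleen (difference 2.42, SE 0.10, adjusted p = 4.63e-05). Endou and Aqp11 differed by 5.25 and 5.17, and the regulator Tox by 2.74 (adjusted p = 3.36e-05). The 2 members not called were the adhesion receptor gene Cd2 (difference 0.27, adjusted p = 0.170) and Cd1d1, which presents lipids to natural killer T cells (difference -0.37, adjusted p = 0.0548).

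The early thymocyte and Notch list was split: of 19 tested, 8 were called higher in thymus and 10 lower. Among the higher ones was Gata3, a transcription factor that T cell development requires, with 9.02, 8.95, 8.71 and 8.72 in thymus, against 5.87, 5.54, 5.76 and 5.66 in spleen (difference 3.14, SE 0.11, adjusted p = 3.69e-05). Myb and Tcf12, which also act in thymocytes, were higher by 2.45 and 1.79. Il2ra, a marker of the stage before the first receptor chain is made, was higher (difference 1.90, adjusted p = 0.00116). Among the lower ones were genes that B cells or blood precursors also use. Hhex, a homeobox gene of precursors and B cells, had 6.19, 6.06, 5.79 and 5.85 in thymus, against 10.14, 10.10, 10.24 and 10.13 in spleen (difference -4.18, SE 0.12, adjusted p = 2.93e-05). Lyl1 was lower (difference -3.83, adjusted p = 4.41e-05), and so was Dtx1, a Notch target that marginal zone B cells also express (difference -3.05, adjusted p = 0.000177). Hes1, another Notch target, was lower as well (difference -1.25, adjusted p = 0.00266), while Heyl was not called (difference -0.01, adjusted p = 0.950). Kit and Flt3, receptors of precursor cells, were lower, with differences of -1.83 and -2.04.

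Genes of the T cell receptor complex and its signalling were called higher in thymus for 15 of 16 tested, with a median difference of 2.23 and none lower. Thy1, the surface glycoprotein of mouse T cells, had 13.09, 13.11, 13.00 and 13.04 in thymus, against 9.93, 9.98, 9.74 and 9.89 in spleen (difference 3.18, SE 0.09, adjusted p = 2.93e-05). The CD3 chains were all called higher: Cd247 differed by 3.00, Cd3g by 2.47, Cd3d by 2.31 and Cd3e by 2.15. The kinase Zap70 and the adaptor Lat, which carry the signal inward, were higher by 2.36 and 2.48. Trat1, a transmembrane adaptor, had the largest difference of the list (difference 3.60, SE 0.11, adjusted p = 2.93e-05). The kinase Fyn was not called (difference 0.22, adjusted p = 0.191).

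Genes of mature, migrating T cells went the other way. Of 14 tested, 13 were called lower in thymus and 0 higher, with a median of -1.73. S1pr1, the receptor by which T cells follow sphingosine phosphate out of the thymus, had 6.64, 6.83, 7.21 and 7.38 in thymus, against 9.48, 9.55, 10.22 and 9.74 in spleen (difference -2.73, SE 0.13, adjusted p = 7.30e-05). Klf2, the factor that turns on S1pr1, had 8.19, 8.30, 8.38 and 8.71 in thymus, against 10.98, 10.82, 11.30 and 10.85 in spleen (difference -2.59, SE 0.15, adjusted p = 0.000129). The spleens were all above the thymi for both. Gimap3 and Gimap4, guanosine triphosphatases of T cell survival, were lower, with differences of -2.38 and -1.97, while Gimap6 was not called (difference -0.21, adjusted p = 0.160). Ccr7, the homing receptor of naive T cells, was lower (difference -1.43, adjusted p = 0.00204), and here the thymi fell into 2 pairs, 7.64, 7.80, 8.61 and 8.89.

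Genes of selection and cell death showed no common direction, with 4 called higher, 6 lower and 7 not called of 17. Fas, the death receptor, had 8.56, 8.50, 8.46 and 8.47 in thymus, against 6.07, 6.35, 6.43 and 5.89 in spleen (difference 2.31, SE 0.13, adjusted p = 0.000113), whereas its ligand Fasl was lower (difference -0.79, adjusted p = 0.00593). Egr1 and Egr2, induced by receptor signals, were higher by 1.44 and 1.06, but Egr3 of the same family was lower (difference -1.85, SE 0.11, adjusted p = 0.000123). Nr4a1 and Bcl2l11, which act in the deletion of self-reactive cells, were not called (difference 0.25, adjusted p = 0.0815 and difference -0.01, adjusted p = 0.917). Bcl2, the survival factor of mature lymphocytes, was lower (difference -1.27, adjusted p = 0.00525), and so was Pmaip1, which encodes the death factor Noxa (difference -2.44, adjusted p = 0.000125). Bcl2l1, the survival factor of double positive cells, depended on the probe set: the brightest gave -0.02 and was not called, and 2 others were called higher by 1.15 and 1.83.

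**Figure D2:**
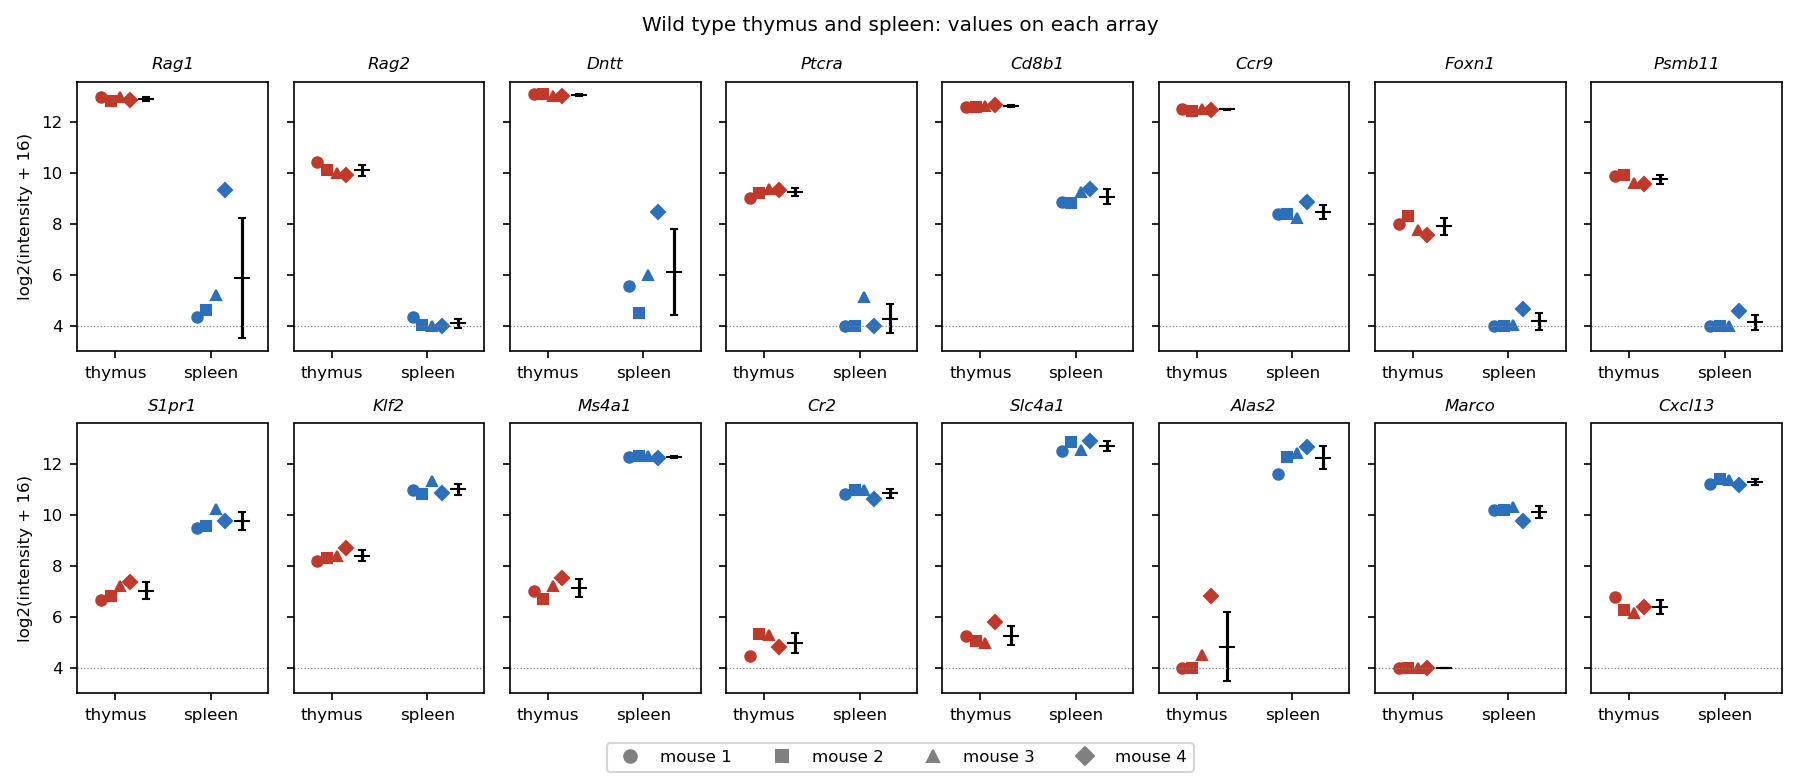
Log2(intensity + 16) of single genes (vertical axis) on the 8 arrays, 1 panel per gene, with thymi left of spleens and 1 point per mouse. The thymi and spleens do not overlap for Rag1, for which the mouse 4 spleen lies at 9.34 and the other spleens at or below 5.19, nor for Alas2, for which the mouse 4 thymus lies at 6.82 and the other thymi at or below 4.49.

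The epithelial scaffold of the thymus was the other large group higher in thymus. Of 23 epithelial genes tested, 18 were called higher and 1 lower, with a median of 3.21, and 5 more were below the filter on low values. Ccl25, the chemokine that draws precursors into the cortex, had 12.05, 12.27, 11.85 and 12.09 in thymus, against 5.08, 4.91, 5.18 and 6.58 in spleen (difference 6.63, SE 0.30, adjusted p = 6.27e-05). Prss16, a serine protease of cortical epithelium, had 12.56, 12.49, 12.34 and 12.37 in thymus, against 5.60, 5.95, 5.55 and 7.77 in spleen (difference 6.22, SE 0.41, adjusted p = 0.000176). Psmb11, the proteasome subunit of cortical epithelial cells, had 9.88, 9.91, 9.61 and 9.56 in thymus, against 4.00, 4.00, 4.00 and 4.58 in spleen (difference 5.60, SE 0.18, adjusted p = 2.93e-05). Each of these was highest in the mouse 4 spleen among spleens, and without mouse 4 the differences were 7.04 for Ccl25 and 6.80 for Prss16. Foxn1, the master regulator of thymic epithelium, had 7.98, 8.29, 7.75 and 7.56 in thymus, against 4.00, 4.00, 4.02 and 4.66 in spleen (difference 3.72, SE 0.23, adjusted p = 0.000156). Pax1, Tbata, Krt8 and Krt18, which belong to cortical or to all thymic epithelium, differed by 5.41, 5.49, 5.44 and 5.92.

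Medullary epithelial genes were measured too. Krt5 and Trp63, a keratin and a transcription factor of basal epithelium, differed by 3.29 and 3.21. Krt17 had 8.58, 8.91, 8.54 and 8.90 in thymus and was at the floor in every spleen (adjusted p = 2.93e-05), as was Krt14, with 6.73, 7.22, 7.13 and 7.52 in thymus (adjusted p = 6.66e-05). Because no spleen value lay above the floor, no fold is given for these 2. Aire, which makes medullary cells express genes of other tissues, had 6.32, 6.30, 6.78 and 6.97 in thymus and was at the floor in every spleen. Fezf2, with a like role, had 6.15, 6.19, 6.52 and 6.62 in thymus and the floor in every spleen. Both were below the filter and were not tested, as were Spink5, Cldn3 and Pax9. Ctsl, the cathepsin that cuts the class II chaperone in cortical epithelium, was higher (difference 2.48, adjusted p = 6.65e-05), as were Enpep by 3.22 and Cldn4 by 2.85. Ly75, an endocytic receptor of epithelial and dendritic cells, differed by 1.98 and Il7, the growth factor of early thymocytes, by 0.85. Eya1 differed little (difference 0.50, adjusted p = 0.0286), a call lost without mouse 2, 3 or 4. Dll4, the Notch ligand of cortical epithelium, was not called (difference 0.19, adjusted p = 0.376), nor were Epcam (difference -0.19, adjusted p = 0.183), Ackr4 (difference 0.14, adjusted p = 0.453) and Ehf (difference -0.53, adjusted p = 0.111). Cd83 was the member called lower (difference -0.40, adjusted p = 0.0176), and it too lost its call without mouse 2 or 3.

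Both organs contain dividing cells. Of 34 mitosis genes, 16 were called higher in thymus and 0 lower, with a median difference of 0.68. Bub1b, a kinase of the spindle checkpoint, had 10.19, 10.11, 9.82 and 9.95 in thymus, against 7.25, 7.38, 8.10 and 8.49 in spleen (difference 2.21, SE 0.28, adjusted p = 0.00185). Top2a, the topoisomerase that untangles sister chromatids, had 12.08, 12.12, 12.12 and 11.97 in thymus, against 10.54, 10.89, 10.75 and 11.22 in spleen (difference 1.22, SE 0.15, adjusted p = 0.00174). Mki67, the marker antigen of proliferating cells, had 11.95, 11.86, 11.87 and 11.75 in thymus, against 11.60, 11.98, 11.93 and 12.34 in spleen and was not called (difference -0.10, SE 0.17, adjusted p = 0.632). For Mki67 the organs overlapped, with the mouse 4 spleen highest of all 8 arrays. The same array was the highest spleen for 34 of the 34 genes, and the mouse 4 thymus the lowest thymus for 31. Without mouse 4, 28 genes were called higher and the median was 0.93. Without mouse 1, 2 or 3 the count was 7 each time, and with mice 3 and 4 only it was 3, so the count depends on which mice are included.

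The start of Top2a is shown because it holds the most matches of the list to both motifs together. It lies on the minus strand at chr11:99024140-99024439 of GRCm38.p6 (RefSeq), again from 250 bases before to 50 after the start. Capitals mark 6 matches to the CCAAT box (CCAAT, or ATTGG on the other strand) and 2 to the cell cycle homology region CHR (TTTGAA, or TTCAAA on the other strand).
Top2a: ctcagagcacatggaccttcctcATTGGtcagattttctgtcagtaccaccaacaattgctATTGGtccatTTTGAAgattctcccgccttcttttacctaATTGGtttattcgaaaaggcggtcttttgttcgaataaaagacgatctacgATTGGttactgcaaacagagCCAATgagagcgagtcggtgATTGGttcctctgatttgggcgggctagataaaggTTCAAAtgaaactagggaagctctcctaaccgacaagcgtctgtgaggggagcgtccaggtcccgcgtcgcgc
Among the 29 windows found for the mitosis list, 79.3% held CCAAT and 75.9% held TTTGAA on either strand, against 38.2% and 12.2% of the 10230 windows of all genes tested. Mki67, which was not called, held 3 and 2 of them.

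Genes of DNA replication had a smaller median difference than those of mitosis. Of 38, 10 were called higher and 3 lower, with a median of 0.15. Over all genes 24.6% were called higher and 26.3% lower, so the higher count was near that share and the lower count under it. Uhrf1, which keeps methylation at the replication fork, had 11.14, 11.00, 11.03 and 10.75 in thymus, against 9.62, 9.59, 9.89 and 10.30 in spleen (difference 1.13, SE 0.20, adjusted p = 0.00591). Tyms, the thymidylate synthase, was higher (difference 0.89, adjusted p = 0.00318). Mcm5 and Mcm7, subunits of the replicative helicase, were not called (difference -0.11, adjusted p = 0.532 and difference 0.27, adjusted p = 0.0639), and Mcm6 was called (difference 0.52, adjusted p = 0.0338) but not without mouse 1, 2 or 3. Fen1, the flap nuclease of lagging strand synthesis, was lower (difference -0.53, adjusted p = 0.0124). The members called lower also included the licensing factor Cdt1 and the cyclin Ccne1, and both calls were lost without mouse 1, 3 or 4, and that of Cdt1 also without mouse 2. Without mouse 4, 17 genes were called higher and 1 lower, and without mouse 1, 2 or 3 the higher count was 3. With no normalization 4 were called higher and 5 lower, and the median was -0.11. An E2F motif, TTGGCGC or TTCCCGC on either strand, lay in 53.1% of the 32 windows found and in 11.9% of all 10230.

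B cell genes were lower in thymus almost throughout. Of 26 tested, 25 were called lower and 0 higher, with a median of -3.80. Cr2, the complement receptor CD21 of mature B cells and follicular dendritic cells, had 4.48, 5.32, 5.27 and 4.81 in thymus, against 10.82, 10.96, 10.98 and 10.61 in spleen (difference -5.87, SE 0.15, adjusted p = 2.93e-05). Ms4a1, which encodes CD20, had 7.02, 6.70, 7.20 and 7.53 in thymus, against 12.24, 12.29, 12.32 and 12.23 in spleen (difference -5.16, SE 0.16, adjusted p = 2.93e-05). Cd79a, the signalling chain of the B cell receptor, had 7.23, 7.03, 7.03 and 7.39 in thymus, against 12.27, 12.24, 12.21 and 12.04 in spleen (difference -5.02, SE 0.13, adjusted p = 2.93e-05). None of the 4 thymi reached any spleen for these 3 genes, and thymus intensities of Ms4a1 were 1.78% to 3.44% of the spleen mean. Fcmr, the receptor for IgM, and Cd22, an inhibitory lectin, were lower, with differences of -5.31 and -4.73. Pax5, the regulator of B cell identity, was at the floor in 2 thymi, with 5.29, 4.00, 4.00 and 5.16 in thymus, against 8.21, 8.18, 7.84 and 7.39 in spleen (difference -3.29, SE 0.33, adjusted p = 0.000810). Ly6d was the member not called (difference 0.02, adjusted p = 0.885).

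Of 6 antibody genes tested, 4 were called lower in thymus and 0 higher, with a median of -1.33. Ighm, the heavy chain of IgM, had 12.66, 12.78, 12.48 and 12.78 in thymus, against 12.97, 13.06, 13.10 and 13.00 in spleen (difference -0.36, SE 0.11, adjusted p = 0.0408), a call lost when any 1 mouse was left out. Its 11 probe sets gave differences of -3.01 to 0.45, but those above 0 were below the filter and not tested. The tested probe sets ran from -3.01 to -0.36, and all were called lower but that at -0.72. Igha, the heavy chain of IgA, had 11.12, 12.90, 11.27 and 11.02 in thymus, against 13.05, 13.13, 13.09 and 13.00 in spleen (difference -1.49, SE 0.32, adjusted p = 0.0123), with the mouse 2 thymus close below the spleens, and lost its call without mouse 3. Jchain, which links antibodies into polymers, was lower (difference -1.41, adjusted p = 0.00154). Ighg3 had the largest difference of the group (difference -3.66, SE 0.37, adjusted p = 0.000789). Igk and Iglv1, light chain genes, were highest in the mouse 2 thymus and were not called (difference -0.77, adjusted p = 0.491 and difference -1.26, adjusted p = 0.0582). Of 12 plasma cell genes, 8 were called lower and 0 higher. Mzb1, a chaperone of antibody assembly, had 7.60, 8.64, 7.52 and 7.87 in thymus, against 11.30, 11.26, 11.02 and 10.86 in spleen (difference -3.20, SE 0.20, adjusted p = 0.000150), again with mouse 2 the highest thymus. Slpi, a protease inhibitor, was lower (difference -4.35, adjusted p = 0.000280), and so was Irf4, a regulator of plasma cells (difference -3.19, adjusted p = 0.00164). Xbp1, which drives the secretory program of plasma cells, was not called (difference -0.07, adjusted p = 0.621), and neither were Edem2 (difference 0.04, adjusted p = 0.797) and Creld2 (difference -0.26, adjusted p = 0.174), which also serve protein folding or disposal in other cells.

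Red cell genes gave the largest differences toward spleen. Of 22 erythroid genes tested, 21 were called lower in thymus and 0 higher, with a median of -4.70. Slc4a1, the anion exchanger band 3 of the erythrocyte membrane, had 5.24, 5.04, 4.97 and 5.80 in thymus, against 12.51, 12.84, 12.53 and 12.89 in spleen (difference -7.43, SE 0.15, adjusted p = 2.93e-05). Alas2, the erythroid enzyme that starts haem synthesis, had 4.00, 4.00, 4.49 and 6.82 in thymus, against 11.59, 12.24, 12.42 and 12.66 in spleen (difference -7.40, SE 0.40, adjusted p = 9.71e-05). Klf1, a master regulator of erythroid genes, had 4.00, 4.01, 4.10 and 5.74 in thymus, against 10.64, 10.77, 11.00 and 11.72 in spleen (difference -6.57, SE 0.17, adjusted p = 2.93e-05). Each spleen was far above each thymus, and for Alas2 and Klf1 the thymi of mice 1 to 3 were near the floor while that of mouse 4 was above it. Thymus intensity was 1.95% of the spleen mean for Alas2 and 1.71% for Klf1 in mouse 4, against at most 0.130% and 0.0550% in the other 3 thymi. Without mouse 4 the differences were -7.96 for Alas2 and -6.80 for Klf1.

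The starts of Alas2 and Klf1 are shown as those of the enzyme and the regulator that lead this group. Alas2 lies on the plus strand at chrX:150547167-150547466 and Klf1 on the plus strand at chr8:84901732-84902031, both of GRCm38.p6 (RefSeq), from 250 bases before to 50 after the start. Capitals mark the GATA motif AGATAA, here read as TTATCT on the other strand, in Alas2, and the CACCC box ACACCC in Klf1.
Alas2: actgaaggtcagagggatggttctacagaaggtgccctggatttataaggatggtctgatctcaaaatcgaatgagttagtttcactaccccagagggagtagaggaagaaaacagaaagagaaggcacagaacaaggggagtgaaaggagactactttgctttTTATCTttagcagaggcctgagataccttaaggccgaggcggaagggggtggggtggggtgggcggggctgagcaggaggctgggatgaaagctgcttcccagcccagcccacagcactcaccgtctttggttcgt
Klf1: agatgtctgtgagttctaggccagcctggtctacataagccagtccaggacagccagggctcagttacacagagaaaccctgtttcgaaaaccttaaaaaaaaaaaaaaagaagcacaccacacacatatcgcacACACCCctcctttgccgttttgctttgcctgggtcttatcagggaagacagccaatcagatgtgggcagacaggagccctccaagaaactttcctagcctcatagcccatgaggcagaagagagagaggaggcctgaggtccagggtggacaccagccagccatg
Matches to AGATAA on either strand lay in 47.1% of the 17 windows found for the erythroid list and in 6.92% of all 10230, and matches to ACACCC in 41.2% and 16.2%. The GATA family includes Gata1, itself lower in thymus (difference -3.89, SE 0.18, adjusted p = 6.23e-05), and Gata3, higher in thymus (difference 3.14, SE 0.11, adjusted p = 3.69e-05). Klf1 is a member of the family that reads CACCC boxes. A match says nothing of whether any of these factors binds there.

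Other erythroid members were lower too. Rhag, a blood group ammonium channel, had 5.00, 4.23, 4.62 and 4.93 in thymus, against 10.52, 10.86, 11.06 and 11.66 in spleen (difference -6.33, SE 0.22, adjusted p = 3.50e-05). The differences were -5.84 in Ermap, an erythroid membrane protein, -5.66 in Rhd, -5.04 in Tal1, a factor of blood formation, and -4.83 in Kel, all called lower. The mouse 4 spleen was the highest spleen for 21 of the 22 members. The haemoglobin gene Hba-a1 was not called, with 7.31, 4.94, 6.15 and 5.62 in thymus, against 6.42, 7.28, 6.31 and 5.99 in spleen on the probe set that stands for it (difference -0.50, SE 0.50, adjusted p = 0.443). Of 10 genes of haem synthesis, 9 were called lower and 0 higher. Abcb10, a mitochondrial transporter of erythroid cells, was lower (difference -3.88, adjusted p = 4.63e-05), and so were the enzymes Alad, Fech and Uros, with differences of -3.35, -3.30 and -2.89. Alas1, the form of the first enzyme used outside red cells, had 8.47, 8.43, 8.51 and 8.56 in thymus, against 8.33, 8.33, 8.45 and 8.89 in spleen and was not called (difference -0.01, SE 0.12, adjusted p = 0.975). Car1, a carbonic anhydrase of erythrocytes, was among the 15 largest differences toward spleen with 4.00, 4.00, 5.09 and 4.00 in thymus, against 10.86, 10.52, 11.37 and 11.52 in spleen (difference -6.80, SE 0.22, adjusted p = 2.93e-05).

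**Figure D3:**
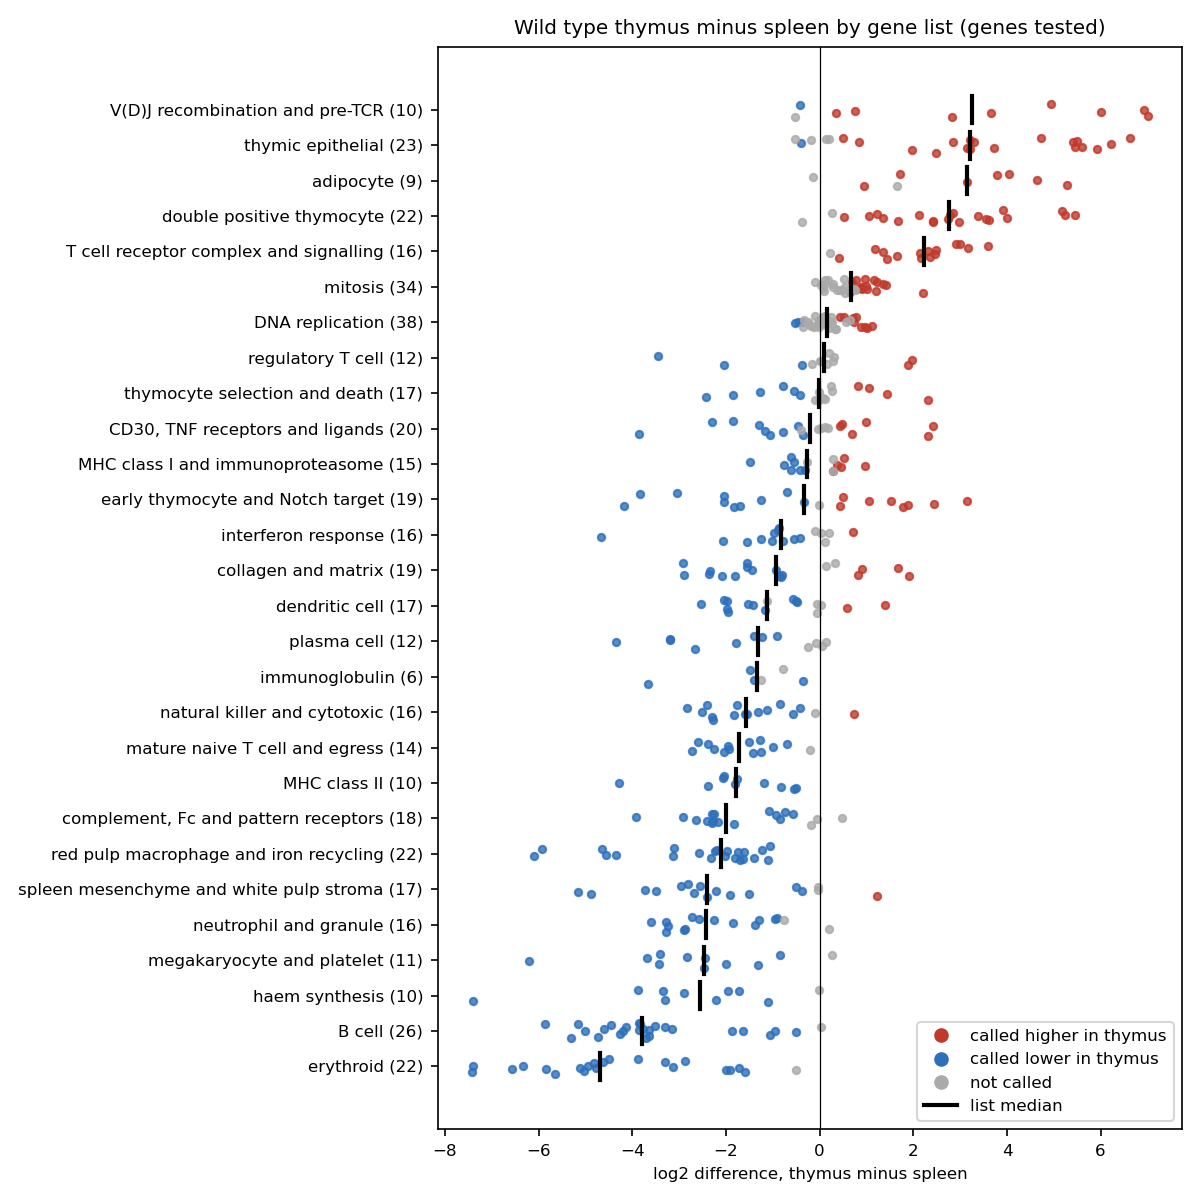
Log2 difference, thymus minus spleen (horizontal axis), of each tested gene of the lists (rows, with the number of genes tested), 1 point per gene, coloured as called higher, called lower or not called, with a bar at the list median. Medians run from 3.24 for V(D)J recombination to -4.70 for the erythroid list, and the mitosis and DNA replication lists lie at 0.68 and 0.15.

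Genes of red pulp macrophages were lower in thymus as well. All 22 genes tested were called lower in thymus, with a median of -2.11. The list was lower in thymus than in the lymph nodes too, with medians of -1.31 against peripheral and -1.62 against mesenteric lymph node. Marco, a scavenger receptor of marginal zone macrophages, was at the floor in every thymus and had 10.20, 10.17, 10.29 and 9.75 in spleen (adjusted p = 2.93e-05), so no fold is given. Hmox1, which breaks down haem, had 6.79, 6.94, 6.54 and 6.91 in thymus, against 11.70, 11.58, 11.48 and 10.98 in spleen (difference -4.64, SE 0.17, adjusted p = 3.89e-05). Slc40a1, the iron exporter ferroportin, had 9.05, 9.15, 9.39 and 9.0 in thymus, against 12.32, 12.32, 12.44 and 12.04 in spleen (difference -3.13, SE 0.10, adjusted p = 2.93e-05). These genes of haem and iron recycling kept a level well above the floor in thymus. Cd5l, a secreted macrophage protein, had a difference of -4.57, Treml4 of -4.36 and Fcna, a ficolin, of -5.94. Spic, the factor that red pulp macrophages require, had 6.35, 6.21, 6.27 and 6.09 in thymus, against 9.09, 8.96, 9.86 and 9.49 in spleen (difference -3.12, SE 0.18, adjusted p = 0.000122), while Vcam1 and Cd163 had differences of -1.62 and -1.64. Fc and pattern receptors moved the same way, with 15 of 18 called lower and 0 higher. Tlr1, a receptor of bacterial lipopeptides, had 6.10, 6.49, 6.39 and 6.17 in thymus, against 10.46, 10.40, 9.97 and 10.00 in spleen (difference -3.92, SE 0.15, adjusted p = 4.01e-05), and the differences were -2.92 in Cd14 and -2.64 in Fcgr2b, the inhibitory Fc receptor. Tlr4, Tlr9 and C3ar1 were not called, with differences of -0.19, -0.05 and 0.48.

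Neutrophil and platelet genes were lower in thymus too. Of 16 neutrophil genes, 14 were called lower, with a median of -2.42. S100a8, a calcium binding protein abundant in neutrophils, had 8.75, 8.44, 9.18 and 8.60 in thymus, against 11.62, 11.89, 11.69 and 10.67 in spleen (difference -2.73, SE 0.23, adjusted p = 0.000422). Elane, the elastase made in granulocyte precursors, had 5.77, 4.76, 4.39 and 4.00 in thymus, against 8.35, 8.40, 7.88 and 7.40 in spleen (difference -3.28, SE 0.19, adjusted p = 0.000127). Here the mouse 4 spleen was the lowest spleen for 16 of the 16 genes. The members not called were Mmp9 (difference 0.21, adjusted p = 0.315) and Itgam (difference -0.76, adjusted p = 0.0765). Of 11 platelet genes, 10 were called lower, with a median of -2.47. Ppbp, a platelet chemokine, had 5.15, 5.21, 4.52 and 5.45 in thymus, against 11.45, 11.60, 11.49 and 10.63 in spleen (difference -6.21, SE 0.29, adjusted p = 6.36e-05), and Pf4, another, had 7.62, 7.51, 7.29 and 7.51 in thymus, against 11.38, 11.27, 10.86 and 10.05 in spleen (difference -3.41, SE 0.23, adjusted p = 0.000199). The mouse 4 spleen was again lowest, for 8 of 11. Gp9, a subunit of the von Willebrand factor receptor, was at the floor in every thymus and had 7.49, 7.63, 7.89 and 7.72 in spleen (adjusted p = 2.93e-05), while its partner Gp1bb was not called (difference 0.26, adjusted p = 0.215).

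Cytotoxic genes were mostly lower, 14 of 16, with 1 exception. Gzma, a granule protease, was higher in thymus, with 10.75, 10.80, 10.58 and 10.59 in thymus, against 10.20, 9.97, 10.00 and 9.64 in spleen (difference 0.72, SE 0.12, adjusted p = 0.00424), while Gzmb of the same family was lower (difference -1.12, adjusted p = 0.00146). The Gzma call was lost with no normalization. Klrd1 and Il2rb, receptors of natural killer cells, were lower, with differences of -2.30 and -2.27, and so were Klra8 (difference -2.84) and Ncr1 (difference -1.77). The chemokine Xcl1, which cytotoxic and medullary cells make, was not called (difference -0.11, adjusted p = 0.390).

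Of 17 dendritic cell genes, 11 were called lower and 2 higher. Ccl22, a chemokine of activated dendritic cells, was higher in thymus, with 7.50, 7.38, 6.83 and 7.58 in thymus, against 5.88, 5.89, 5.96 and 5.94 in spleen (difference 1.40, SE 0.16, adjusted p = 0.00125). Itgax, which encodes CD11c, had 7.67, 7.54, 7.59 and 7.84 in thymus, against 9.60, 9.55, 9.91 and 9.54 in spleen (difference -1.99, SE 0.13, adjusted p = 0.000172), and Zbtb46 and Irf8, factors of dendritic cells, were lower, with differences of -2.54 and -1.99. Fscn1, a marker of mature dendritic cells, was not called (difference -0.05, adjusted p = 0.900). All 10 class II antigen presentation genes were called lower, by unequal amounts. H2-Ob, a modulator used by B cells, had 6.95, 7.10, 7.08 and 7.32 in thymus, against 11.46, 11.46, 11.50 and 11.14 in spleen (difference -4.28, SE 0.14, adjusted p = 3.30e-05), whereas H2-Aa, a chain of the class II molecule itself, had 12.03, 11.98, 12.02 and 12.22 in thymus, against 12.79, 12.88, 12.95 and 12.90 in spleen (difference -0.82, SE 0.10, adjusted p = 0.00155). Ciita, the master activator of the class II genes, lay between them (difference -2.05, adjusted p = 6.23e-05). Class I genes went both ways, with 5 called higher and 7 lower of 15. Tap2, a peptide transporter subunit, was higher (difference 0.96, SE 0.13, adjusted p = 0.00226), and Tap1, the other subunit, was lower (difference -0.60, adjusted p = 0.0146), although the Tap1 call was lost without mouse 1, 2 or 3. Nlrc5, the activator of class I genes, was lower (difference -1.48, adjusted p = 0.000501), and so were H2-D1 and H2-K1, with differences of -0.61 and -0.54. Without mouse 1, 2 or 3, only 2 class I genes were called higher and 4 lower, without mouse 4, 3 were called higher, and with no normalization 1 was.

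Genes of spleen mesenchyme and white pulp stroma were mostly lower in thymus. Of 17 genes, 14 were called lower and 1 higher in thymus. The list was lower in thymus than in the lymph nodes of the same mice too. Its median was -1.60 over 13 genes against peripheral and -1.48 over 15 against mesenteric lymph node. Cxcl13, the chemokine that forms B cell follicles, had 6.78, 6.25, 6.15 and 6.38 in thymus, against 11.21, 11.40, 11.35 and 11.16 in spleen (difference -4.89, SE 0.16, adjusted p = 2.93e-05). Tcf21, a factor of visceral mesenchyme, had 5.17, 5.23, 4.38 and 4.71 in thymus, against 10.10, 9.97, 10.33 and 9.76 in spleen (difference -5.17, SE 0.22, adjusted p = 4.87e-05). Tlx1, without which mice form no spleen, had 5.08, 5.05, 5.04 and 4.76 in thymus, against 7.67, 7.74, 7.98 and 7.80 in spleen (difference -2.81, SE 0.12, adjusted p = 4.95e-05). Nkx2-3 and Nkx2-5, homeobox genes of the spleen anlage, were lower, with differences of -2.22 and -1.5. The difference was -3.49 in Stab2, a scavenger receptor of sinus endothelium, and -2.41 in Madcam1, an addressin of the marginal sinus. Pdpn, which thymic epithelium and lymphoid stroma both carry, was the member called higher (difference 1.22, SE 0.15, adjusted p = 0.00164). Pecam1 and Ltbr were not called (difference -0.04, adjusted p = 0.918 and difference -0.04, adjusted p = 0.828). Among 19 matrix genes, 13 were called lower and 4 higher. Bgn, a small proteoglycan, had 8.83, 8.86, 9.0 and 9.18 in thymus, against 11.79, 11.89, 12.05 and 11.83 in spleen (difference -2.92, SE 0.11, adjusted p = 4.03e-05), and Col14a1, Sparc and Col1a2 were lower, with differences of -2.89, -2.34 and -2.09. Lum, another small proteoglycan, was higher, with 7.49, 7.37, 7.79 and 7.45 in thymus, against 5.55, 5.34, 5.82 and 5.74 in spleen (difference 1.91, SE 0.10, adjusted p = 9.56e-05), as were Col15a1 (difference 1.66, adjusted p = 0.000659), Dcn (difference 0.91, adjusted p = 0.0117) and Col6a2 (difference 0.82, adjusted p = 0.00710).

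Interferon induced genes were lower in thymus for 11 of 16 and higher for 1. Rsad2, an antiviral enzyme, stood apart with 7.18, 7.51, 7.71 and 7.72 in thymus, against 11.62, 12.43, 12.16 and 12.55 in spleen (difference -4.66, SE 0.13, adjusted p = 2.93e-05), far beyond the next member, Gbp3 (difference -2.06, adjusted p = 0.000235). Ifit2 was higher (difference 0.70, adjusted p = 0.0151), while Ifit1 and Usp18, which interferon also induces, were not called (difference -0.09, adjusted p = 0.481 and difference 0.03, adjusted p = 0.802).

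The gene pair at the centre of the study differed little between the organs of wild type mice. Tnfsf8, which encodes CD30 ligand, had 6.41, 6.11, 6.16 and 6.26 in thymus, against 6.57, 6.66, 6.59 and 6.59 in spleen (difference -0.37, SE 0.11, adjusted p = 0.0362). Tnfrsf8, which encodes its receptor CD30, had 6.37, 6.23, 6.23 and 6.21 in thymus, against 5.56, 5.85, 5.85 and 5.89 in spleen (difference 0.47, SE 0.12, adjusted p = 0.0229). The thymi and spleens did not overlap for either, but the Tnfsf8 call was lost when any 1 mouse was left out and the Tnfrsf8 call without mouse 1, 2 or 3. Elsewhere in the TNF family, Cd27, a costimulatory receptor of T cells, was higher (difference 2.42, SE 0.14, adjusted p = 0.000117), as were the ligands Tnfsf9 (difference 0.99, adjusted p = 0.00352) and Tnfsf10 (difference 0.70, adjusted p = 0.00287). Lta and Ltb, the lymphotoxins that organise lymphoid tissue, were lower, with differences of -2.30 and -1.17. Tnfrsf13c, the receptor for the B cell survival factor BAFF, was lower (difference -3.85, adjusted p = 6.84e-05), as was Cd40 (difference -1.84, adjusted p = 0.000102), while Tnfsf13b, which encodes BAFF, was not called (difference -0.39, adjusted p = 0.0605). In all 6 of 20 were called higher and 9 lower.

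Regulatory T cell genes had no common direction, with 2 higher and 3 lower of 12. Foxp3, the factor that defines these cells, had 5.64, 5.79, 5.57 and 5.62 in thymus, against 6.22, 5.97, 5.87 and 6.05 in spleen (difference -0.37, SE 0.11, adjusted p = 0.0356), and that call was lost when any 1 mouse was left out. Ikzf2, which encodes Helios, was higher, with 10.60, 10.46, 10.36 and 10.33 in thymus, against 8.63, 8.56, 8.38 and 8.30 in spleen (difference 1.97, SE 0.09, adjusted p = 6.36e-05). Izumo1r, the folate receptor 4 of regulatory T cells and egg cells, was lower, with 4.00, 4.00, 4.00 and 4.95 in thymus, against 7.31, 8.06, 7.63 and 7.77 in spleen (difference -3.46, SE 0.21, adjusted p = 0.000139), and so was Capg (difference -2.05, adjusted p = 0.000112). Nrp1 and Tnfrsf18 were not called (difference 0.19, adjusted p = 0.221 and difference 0.03, adjusted p = 0.867).

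Transcripts typical of fat and of parathyroid were present on the thymus arrays. Of 9 adipocyte genes, 7 were called higher in thymus, with a median of 3.14. Car3, a carbonic anhydrase abundant in fat, had 11.60, 11.02, 11.91 and 10.95 in thymus, against 6.64, 6.33, 5.72 and 5.68 in spleen (difference 5.28, SE 0.26, adjusted p = 7.13e-05). Adipoq, the hormone adiponectin, had 9.37, 8.60, 9.68 and 8.47 in thymus, against 4.46, 4.30, 4.56 and 4.24 in spleen (difference 4.64, SE 0.18, adjusted p = 4.33e-05). Ucp1, the uncoupling protein of brown fat, had 5.99, 8.08, 9.81 and 8.35 in thymus and was at the floor in every spleen (adjusted p = 0.00285). For these 3 genes the thymi differed among themselves, with mouse 3 highest. Pth, parathyroid hormone, had 9.50, 9.64, 7.92 and 7.15 in thymus, against 4.67, 4.69, 4.66 and 4.96 in spleen (difference 3.81, SE 0.49, adjusted p = 0.00192), here with mice 1 and 2 highest, and Bpifa1, a secreted protein of airway epithelium, was higher (difference 2.54, adjusted p = 9.76e-05). The skeletal muscle marker Acta1 was below the filter, with 5.79, 8.72, 5.60 and 4.00 in thymus, against 4.63, 4.00, 4.00 and 4.00 in spleen, highest in the mouse 2 thymus. Of the pancreas genes, Cela1, an elastase also made outside the pancreas, was lower (difference -2.60, SE 0.14, adjusted p = 0.000106), and Cpa1, a pancreatic enzyme, was at the floor in every thymus and had 7.22, 4.00, 4.00 and 5.90 in spleen. Their part in other results was not tested.

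Genes often taken as constant were close. Rplp0, Sdha, Hprt and Ywhaz were not called, with differences of 0.01, 0.06, 0.10 and 0.15. Actb, Pgk1 and Tbp were called higher by 0.39, 0.38 and 0.36, but none of the 3 was called with no normalization or without mouse 1, 2 or 3. With no normalization the median difference of all genes was -0.24, a shift of the whole scale, and Gusb, a lysosomal enzyme, was lower in either case (difference -0.76, SE 0.10, adjusted p = 0.00238).

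Genes outside the lists were also among the 15 largest differences each way. Fcgbp, a mucin-like protein that binds IgG, had 9.21, 9.25, 9.59 and 10.30 in thymus and was at the floor in every spleen (adjusted p = 3.69e-05). Toward spleen, Coch, the protein cochlin, had 6.01, 5.33, 5.41 and 5.54 in thymus, against 11.98, 11.81, 12.39 and 12.09 in spleen (difference -6.49, SE 0.18, adjusted p = 2.93e-05). Tmcc2, a membrane protein, had 5.81, 5.68, 5.86 and 5.80 in thymus, against 10.91, 11.98, 11.71 and 12.59 in spleen (difference -6.01, SE 0.28, adjusted p = 6.27e-05). Aldh1a1, a retinaldehyde dehydrogenase, had 4.89, 4.78, 4.00 and 4.00 in thymus, against 9.76, 10.06, 10.65 and 11.08 in spleen (difference -5.97, SE 0.40, adjusted p = 0.000186). Nxpe2 was at the floor in every thymus and had 9.38, 9.50, 9.92 and 10.62 in spleen (adjusted p = 4.03e-05).

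The same contrast in CD30L transgenic mice gave a repeat in other animals. There 11218 of 27022 probe sets (41.5%) were called, and 22% of 12486 genes tested were called higher in thymus and 22.3% lower. The 3' to 5' ratio of Actb was 2.83, 3.57, 1.68 and 1.85 in transgenic spleens and 2.25, 2.23, 1.34 and 1.43 in transgenic thymi. As in wild type mice, it was higher in mice 1 and 2 than in mice 3 and 4 in both organs. Its part in the repeat was not tested. Of the 6393 genes called in wild type mice and tested in transgenic mice, 4725 were called the same way in transgenic mice and 0 the opposite way. The difference in Rag1 was 7.87 in transgenic mice and 7.02 in wild type mice. That in Ccl25 was 6.56 in transgenic mice and 6.63 in wild type mice, and that in Alas2 was -7.43 and -7.40. Klf1 differed by -4.65 in transgenic mice and -6.57 in wild type mice (adjusted p = 0.295 for the difference between genotypes, limma). The erythroid median was -3.77 in transgenic mice and -4.70 in wild type mice, and the haem synthesis median -1.79 and -2.55. For cell cycle genes, of the mitosis list 31 of 34 were called higher in transgenic mice with a median of 1.03, against 16 and 0.68 in wild type mice. Of the DNA replication list 21 were called higher in transgenic mice with a median of 0.54, against 10 and 0.15 in wild type mice. Of the 16 interferon genes tested, 4 were called higher and 3 lower in transgenic mice with a median of -0.29, against 1 higher and 11 lower and a median of -0.83 in wild type mice. Whether the lists differ between genotypes was not tested. Of single probe sets, 2 of 27022 (0.0074%) passed the test of the difference between genotypes (limma on each mouse's difference), against 2268 at an unadjusted p under 0.05. Tubb4a, a beta tubulin, differed between organs by 0.43 in transgenic mice, while in wild type mice its thymi were at 6.99 to 7.50 and all 4 spleens at the floor, so that no exact difference is given there (adjusted p = 0.00456). Rgs13, a regulator of G protein signalling in germinal centre B cells, differed by -4.09 in transgenic mice and -1.12 in wild type mice (adjusted p = 0.020).

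**Figure D4:**
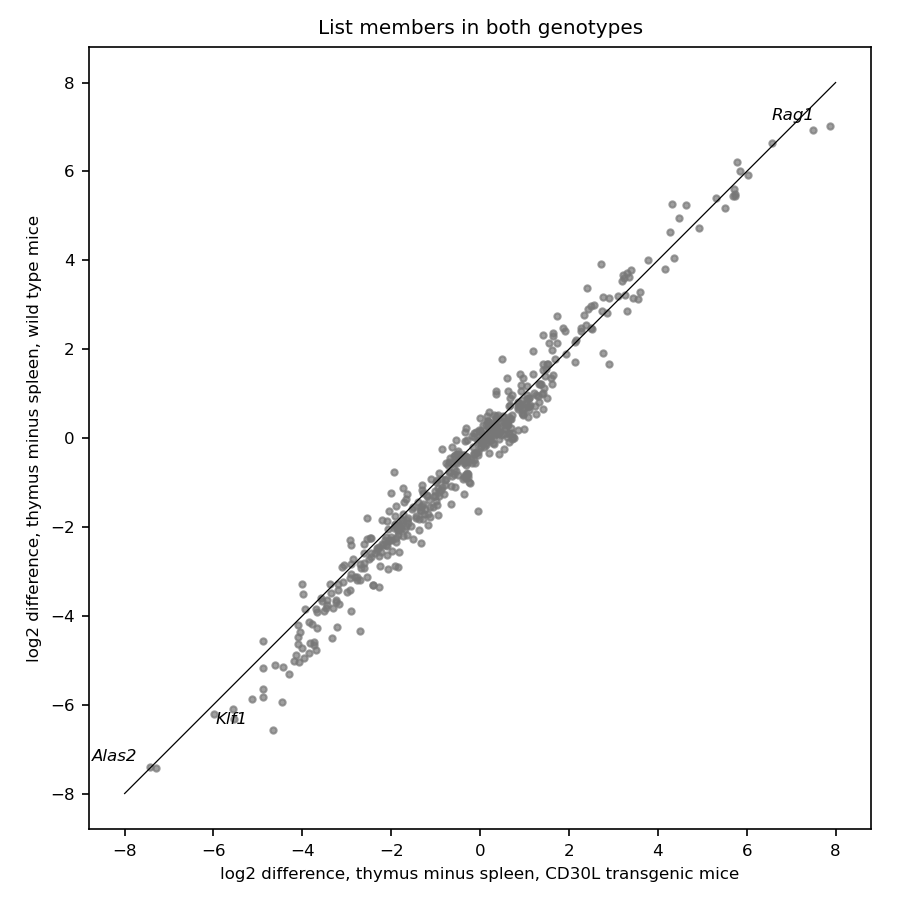
Log2 difference, thymus minus spleen, of the list members in CD30L transgenic mice (horizontal axis) and wild type mice (vertical axis), 1 point per gene, with the line of equal values. Of the 483 members plotted, 453 have the same sign in both genotypes, and the largest gap from the line is 1.92.

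Set against the lymph nodes of the same mice, the lists did not all keep the differences they had against spleen. These contrasts share the thymus arrays with the one above, so they are given side by side only. The difference in Rag1 was 7.92 against peripheral lymph node, 7.92 against mesenteric lymph node and 7.02 against spleen, and that in Ms4a1 was -5.02, -5.09 and -5.16. Mitosis genes were well above the lymph nodes, with all 34 called higher in both contrasts and medians of 2.90 against peripheral and 1.88 against mesenteric lymph node, against 0.68 for spleen. In those contrasts 30.3% and 28% of probe sets were called higher. Mki67, not called against spleen, differed by 3.46 and 2.04 from the lymph nodes. Neutrophil genes, lower than in spleen, had medians of 0.06 over 13 genes tested against peripheral and 0.31 over 11 against mesenteric lymph node. The erythroid medians were -0.26 over 14 genes and -0.13 over 13, and Alas2, Klf1 and Slc4a1 were below the filter there. Adipocyte genes reversed: their median was -2.01 against peripheral and -1.92 against mesenteric lymph node and 3.14 against spleen.

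**Figure D5:**
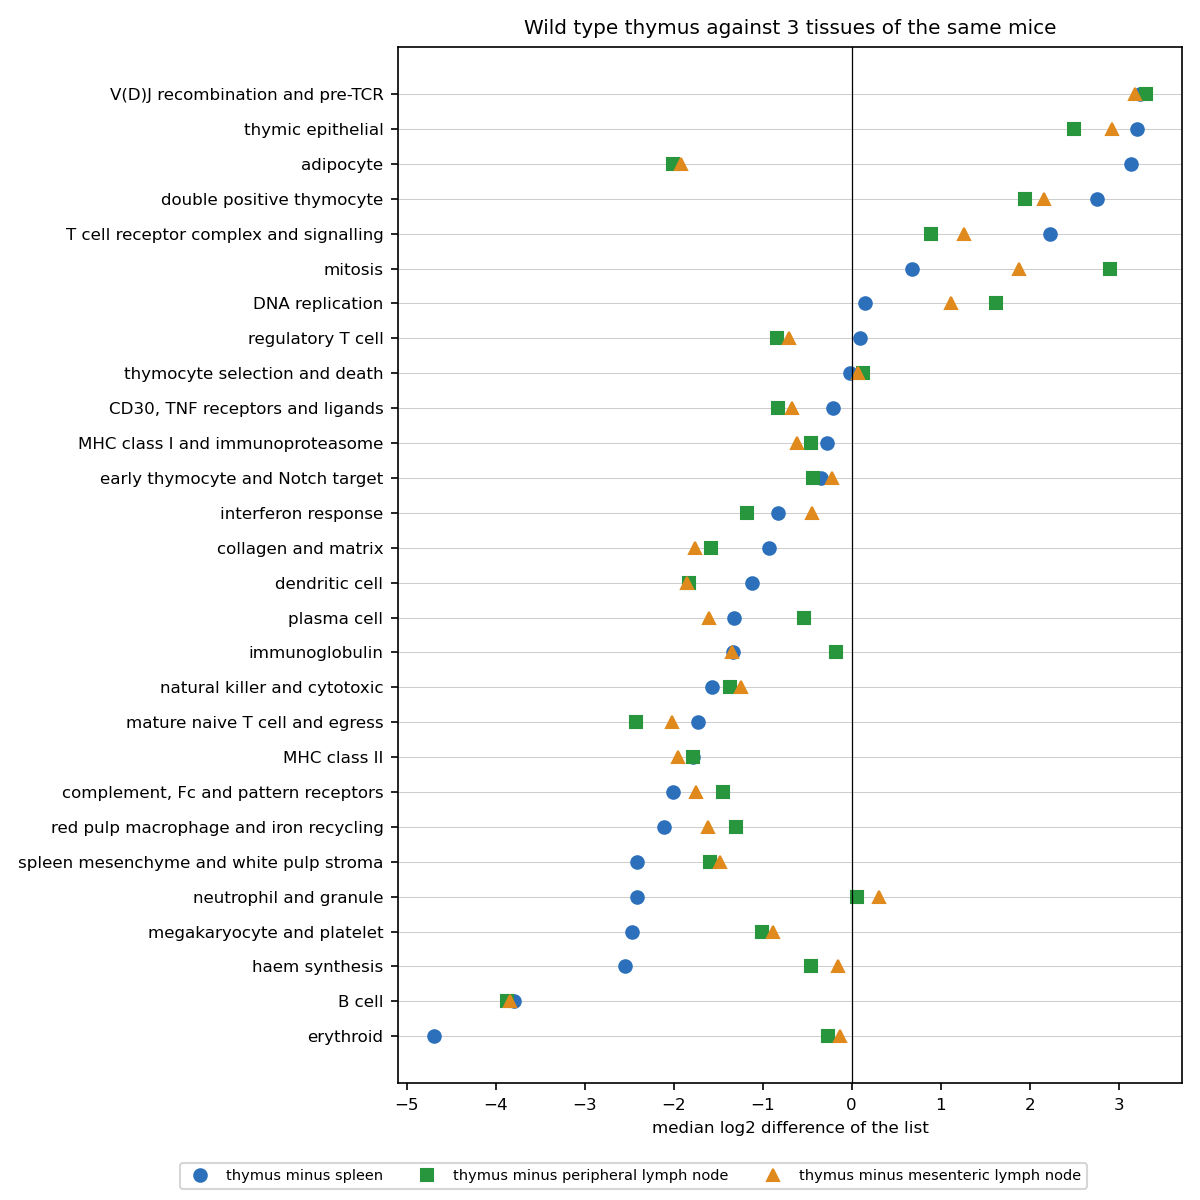
Median log2 difference of each list (rows) for wild type thymus minus peripheral lymph node, minus mesenteric lymph node and minus spleen (horizontal axis, 1 marker shape per tissue). The V(D)J list lies between 3.19 and 3.31 in all 3, the erythroid list is far from 0 only against spleen at -4.70, and the mitosis list is nearest to 0 against spleen at 0.68.

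Not every gene gave 1 answer. Among 2455 genes with more than 1 called probe set, 190 had probe sets called in opposite directions. Hbb-b2, a beta globin gene, had a difference of -5.91 on its brightest probe set and of 3.20 on another. Ctse, a cathepsin of blood and immune cells, had differences of -4.23 and 2.40, and Runx1, a regulator of blood formation, had 3 probe sets higher by 1.42 to 2.04 and 1 lower, at -2.89. Camk2a, Prrg1 and Spata13 disagreed in the same manner, so no single direction is given for them.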

How the data were processed

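RNA of whole thymus and spleen of 4 wild type mice was hybridised to 8 Affymetrix arrays, and per the labels each array holds 1 organ of 1 mouse. The deposited values are an intensity per probe set on a linear scale, and the algorithm that made them from the scans is not given in the sources used here. Between 15.5% and 16.7% of the values of these arrays were below 0, and the trimmed mean intensity (2% left out at each end) was 166 to 272. Arrays carry no read depth, so precision depends on the 4 mice.

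Negative intensities were set to 0, 16 was added, and the log2 of the deposited intensity was quantile normalized over the 8 arrays after 64 control probe sets were left out. Of the 45037 others, the 27022 with a mean above the 40th percentile were tested with limma 3.58.1 in R 4.3.3, thymus minus spleen with mouse number as a block, and p was adjusted by the Benjamini-Hochberg method at 0.05. The pairing comes from the labels, by which a mouse number marks 1 animal; after tissue means were taken out, same-numbered organs correlated at 0.0189 to 0.0777, but the thymus of mouse 1 correlated at 0.110 with the spleen of mouse 2 and that of mouse 3 at 0.111 with the spleen of mouse 4, so the correlations followed mice 1 and 2 against mice 3 and 4 and not the mouse number. Symbols came from the array's annotation, 34945 probe sets having 1 symbol, 932 several and 9160 none, and 34741 of the first matched RefSeq genes. Of 629 entries in 32 gene lists, 557 had a probe set. The others are not analysed here. Promoter windows came from RefSeq (GRCm38.p6), with 10230 windows for the 12689 genes tested, and were searched in Python 3.11.15.

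The members and lists were chosen with earlier results of these data known. The genes named are the 15 largest called differences each way whose groups do not overlap, every V(D)J and thymic epithelial list member, Tnfsf8 and Tnfrsf8, from each other list up to 8 members with the smallest p, up to 4 called against the list's direction and up to 3 not called, up to 6 with probe sets that disagree, up to 5 with the smallest p for the difference between genotypes, and cell type markers. The limma fits were tested on simulated data. Other settings tried were 1 or 64 as the pseudocount, median scaling in place of quantiles or none, testing every probe set or those above the 60th percentile, no mouse block, intensity trend with robust moderation, array weights, a fold threshold, 1 fit over 32 arrays, all probe sets of a gene, each mouse left out, and mice 1 and 2 or 3 and 4 only.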

Additional observations from a re-analysis of the deposited data

Results flagged for a closer look

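In a group of 4 arrays, a value was listed here when its gap to the nearest of the other 3 was, as a share of the group's range, above Dixon's 95% critical value. Chance lists about 1 in 20 groups, and of the 235 named genes 13 were listed in thymus and 20 in spleen. The mouse 4 spleen accounts for 12 of the 20. In 6 of the 33, Car1, Izumo1r, Psmb11, Ptcra, Acta1 and Spink5, the other 3 arrays were all at the floor, which fixes the listing, so the chance rate does not apply to them.

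In the mouse 4 spleen, 5 genes were above the other spleens: Rag1 at a log2 level of 9.34, Ccl25 at 6.58, Foxn1 at 4.66, Psmb11 at 4.58 and Pth at 4.96. In the same array 7 genes were below them: Cd163 at 8.07, Vcam1 at 12.00, Ppbp at 10.63, Mmp9 at 6.54, H2-Ob at 11.14, Nrp1 at 9.35 and Ly6d at 11.02. Rag1 marks thymocytes, Ccl25, Foxn1 and Psmb11 thymic epithelium, and Pth the parathyroid. The levels of Foxn1, Psmb11 and Pth there were near the floor, and the other spleens had 4.66 to 4.69 for Pth.

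In the mouse 4 thymus, Klf1 lay above the other thymi at 5.74, Izumo1r at 4.95 and Myb at 12.68, while Flt3 lay below them at 4.69 and Tlx1 at 4.76. The mouse 2 thymus was highest in Igha at 12.90, Creld2 at 8.69 and Ltbr at 7.88. The mouse 1 thymus was lowest in Lta at 4.00 and Madcam1 at 5.87 and highest in Tnfrsf8 at 6.37. The mouse 3 thymus was highest in Car1 at 5.09 and lowest in Nhej1 at 6.28. Of the other spleens, that of mouse 3 was highest in Ptcra at 5.12, Ctsl at 10.31, Tlr9 at 6.75 and Spink5 at 4.07. That of mouse 1 was highest in Rag2 at 4.35, Acta1 at 4.63 and Cela1 at 9.61 and lowest in Tnfrsf8 at 5.56.

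The difference between the organs depended on the genotype for 2 probe sets, tested with limma as transgenic minus wild type of each mouse's thymus minus spleen value. The difference was -2.85 for Tubb4a (adjusted p = 0.00456), a size that depends on the floor because all 4 wild type spleens lay there, and -2.97 for Rgs13 (adjusted p = 0.020).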

How the results depend on the processing

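The count of probe sets called was 13176, and every alternative kept it between 9111 and 14409 except the fold threshold of 1 log2 unit, which gave 5308 (2384 higher and 2924 lower). With no normalization 10699 were called, of which 3302 (30.9%) were higher in thymus, against 54.5% with quantile normalization, and the median difference of all genes was then -0.24. With mice 3 and 4 only, 4693 were called higher. Leaving out 1 mouse gave 9918 to 12300 in all, 5199 to 6658 higher and 4719 to 5642 lower. Without the mouse block, that is without the pairing, 13761 were called, 7569 higher and 6192 lower, and 10985 in transgenic mice; there leaving out 1 mouse gave 8100 to 9459.

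The difference between genotypes was called for 2 probe sets, for 1 with a pseudocount of 1, for 4 with no filter, for 0 above the 60th percentile and for 1 to 2 when 1 mouse was left out. The parathyroid and airway median turned from 1.24 to -0.0684 with a pseudocount of 1 and to -0.0463 with 1 fit over 32 arrays. With mice 1 and 2 only, Pecam1 was 0.44 (adjusted p = 0.0481) and Tlr4 0.72 (adjusted p = 0.0169), both higher in thymus; the cause was not tested. Of the 332 genes named by the rule, 268 were called, and 54 calls were lost with the fold threshold, 42 with mice 3 and 4 only, 19 with mice 1 and 2 only, 21 with no normalization, 17 with no filter, 11 to 29 without 1 mouse and at most 9 under each other setting. Among those lost with no normalization were Xrcc4, Xrcc5, Gzma, Ifit2, Tnfsf10, Tnfrsf8, Col6a2 and Eya1.

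Values at the floor of 4 have no order, which limits the 17 genes called lower with all 4 thymi at the floor and the 12 called higher with all 4 spleens there.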
